A study of Homo sapiens with 6 samples.

Results

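The genes of phosphatidylcholine and phosphatidylethanolamine synthesis were examined in Hep3B cells after RFX6-KO. They are PCYT1A, PCYT1B, PCYT2, CHKA, CHKB, CHPT1, CEPT1, ETNK1, ETNK2 and PEMT, taken by symbol from the table of counts, where all 10 were present among 16720 rows with a gene name. All 10 passed the filter on low counts, as did 12839 genes in all. Hep3B is an established human cell line from a hepatocellular carcinoma (HCC). RNA was sequenced from 3 sgControl libraries, whose genotype label is WT and whose table columns are named cas, and from 3 sgRFX6 libraries, whose columns name the guide sg3. For the knockout, a guide against RFX6 was delivered with Cas9 by a lentiviral lentiCRISPRv2 vector, and cells were kept under puromycin and grown from single cells, so that the sgRFX6 libraries may come from 1 clone. The labels do not say that the libraries of a group came from separate cultures, and p-values then measure only the spread between these libraries, which may be technical. A difference that belongs to a clone and a difference caused by loss of RFX6 cannot be told apart in this design.

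Both lipids are made by the Kennedy pathway, in which choline or ethanolamine is phosphorylated, activated with CTP and joined to diacylglycerol. CHKA and CHKB are choline kinases, and ETNK1 and ETNK2 are ethanolamine kinases. PCYT1A and PCYT1B code for the cytidylyl transferases of the choline branch, usually its slowest step, and PCYT2 for that of the ethanolamine branch. CHPT1 completes phosphatidylcholine, and CEPT1 can complete either lipid. PEMT, an enzyme active mainly in liver cells, methylates phosphatidylethanolamine to phosphatidylcholine. Phosphatidylcholine is the main phospholipid of cell membranes and of the lipoproteins and bile that liver cells secrete.

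The genes were chosen by their pathway with the fold changes and calls of this comparison already known, so their values are a description and support nothing on their own. By edgeR's quasi-likelihood test with Benjamini-Hochberg adjustment over all genes tested, CHPT1 was called higher in sgRFX6 and PCYT1B lower, and the other 8 were not called. Over all genes tested, 480 of 12839 were called (3.74%), with 247 higher (1.92%) and 233 lower (1.81%). Fold changes are log2 values, sgRFX6 minus sgControl. In bulk RNA, fewer cells with a transcript and less of it per cell cannot be told apart. The 10 genes had a median of 0.01 against 0.02 over all genes tested, with 5 positive and 5 negative values. For 4 of the 10 the libraries of the groups did not overlap (CHPT1 and CHKA higher, PCYT1B and ETNK2 lower), as for 2972 genes tested (23.1%).

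The libraries held from 16730374 to 25070770 counts, and 3 counts, the limit below which a level was treated as not detected, came to between 0.122 and 0.189 CPM (counts per 1000000 counts of the library, after TMM scaling). Intervals cover counting error only, since PCR copies are not independent molecules. RFX6, a transcription factor of the RFX family, was at 5.64, 5.83 and 7.34 CPM in sgControl and at 3.43, 3.71 and 3.50 CPM in sgRFX6. Its groups did not overlap, but its fold change of -0.82 (SE 0.26) did not pass the test (adjusted p = 0.142). It passed in 2 of 16 alternative analyses, limma-voom (-0.96, adjusted p = 0.00274) and a correction for GC content (-0.82, adjusted p = 0.0489). Those fits called 3998 of 12839 and 1409 of 12206 genes. The paper reports that the knockout was checked in mRNA and protein. Counts over a whole gene do not read the edit at the guide's site. Libraries of 1 group also differed by the GC content of the genes, a property of their sequence. Across 12206 genes, the deviation of sgRFX6 library 3 from its group mean had a Spearman correlation with GC content of -0.848, against 0.645 and 0.72 for the other sgRFX6 libraries. In sgControl the correlations were -0.565, 0.407 and 0.0493. These are correlations across genes, which are not independent replicates.

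The promoters of PCYT1B and CHPT1, the 2 genes called, are shown because RFX proteins bind DNA at the X-box, a motif in which a short core site is repeated in the opposite direction. Each sequence holds the 250 bases before a transcription start in RefSeq on GRCh38.p14, written 5′ to 3′ on the gene's own strand. Capitals mark the core site GTTGCC, searched on both strands as GTTGCC and GGCAAC.
PCYT1B promoter, chrX:24672888-24673137, minus strand: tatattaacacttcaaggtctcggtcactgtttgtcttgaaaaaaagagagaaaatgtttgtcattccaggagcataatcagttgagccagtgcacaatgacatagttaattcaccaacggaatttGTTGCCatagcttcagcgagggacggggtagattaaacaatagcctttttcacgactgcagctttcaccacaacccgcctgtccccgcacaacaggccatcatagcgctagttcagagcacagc
PCYT1B promoter of the downstream start, chrX:24647348-24647597, minus strand: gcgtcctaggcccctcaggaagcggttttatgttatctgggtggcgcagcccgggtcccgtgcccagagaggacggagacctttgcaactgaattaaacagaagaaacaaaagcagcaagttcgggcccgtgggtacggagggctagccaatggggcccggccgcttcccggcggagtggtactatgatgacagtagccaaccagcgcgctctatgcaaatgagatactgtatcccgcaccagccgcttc
CHPT1 promoter, chr12:101697390-101697639, plus strand: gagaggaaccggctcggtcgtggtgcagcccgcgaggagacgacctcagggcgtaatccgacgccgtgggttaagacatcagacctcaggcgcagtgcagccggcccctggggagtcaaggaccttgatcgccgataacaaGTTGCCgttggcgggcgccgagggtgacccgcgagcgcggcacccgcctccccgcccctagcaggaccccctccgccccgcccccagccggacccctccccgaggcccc
The upstream PCYT1B promoter held 1 core site, at position -124 from the RefSeq start, and the downstream promoter held none. That upstream window lies wholly before the GENCODE start of PCYT1B at chrX:24672677, so the site is further from that start. In the CHPT1 promoter the core site was at position -109 from the RefSeq start. The whole window lies inside the GENCODE span of CHPT1, whose start at chr12:101696947 is upstream of it. Its last bases lie in the 5′ untranslated region of a GENCODE transcript. PCYT1B's upstream promoter had a GC content of 45.2%, and that of CHPT1 had 72%. RefSeq promoters were given for 9 of the 10 genes (none for CHKA), with several starts for some. PCYT2, which was not called, was the only other gene with a core site, at position -22 from the start that follows chr17:81911176-81911425. The search covered the 250 bases before each start and the 50 after it, which are not printed. Core sites occurred in 12.2% of 35116 promoters searched. The whole X-box, searched as GTTNCC, any 2 bases and GGNAAC, which can overlap the core site, occurred in 0.49% of them and in none of these genes. A match is a string of letters and not a measured binding site.

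PCYT1B showed the largest difference of the 10. This gene, on chromosome X (chrX:24558087-24672677, minus strand, ENSG00000102230), was represented by 59, 67 and 62 counts in the sgControl libraries and by 0, 2 and 1 counts in the sgRFX6 libraries. The levels were 2.84, 2.71 and 2.68 CPM in sgControl and 0.00, 0.13 and 0.05 CPM in sgRFX6, so that every sgRFX6 library was below the limit of 3 counts. Summed over libraries, 188 counts stood against 3, a ratio of 53.0 after scaling for depth (95% interval 17.9 to 259.0 from an exact binomial test). The fitted fold change of -5.56 (SE 0.61, adjusted p = 0.00251 by edgeR's quasi-likelihood test) depends on the small count that edgeR adds. The call was made in all 16 alternative analyses, including each with 1 library left out. PCYT1B is thus low in sgControl and was not detected in sgRFX6 by the limit of 3 counts.

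The 3 nearest tested genes on each side of PCYT1B had fold changes between -0.34 and 0.52. PDK3, a mitochondrial kinase gene whose end lies 16.2 kb away, had a fold change of 0.21, and POLA1, the DNA polymerase subunit gene 21.2 kb away on the other side, one of -0.10. ZFX and EIF2S3, further along, were at -0.03 and -0.34. NR0B1 and GK, 5630 and 5980 kb away, were at -0.17 and 0.52, and none of the 6 was called. They were chosen for their position. The median over the 50 tested genes nearest to PCYT1B was -0.08. An antisense gene, PCYT1B-AS1, overlaps PCYT1B in GENCODE and has no row of its own. Whether the counting used strand is not given in the sources used here, so reads of overlapping genes on opposite strands cannot be told apart for any of these genes.

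PCYT1A, the ubiquitous cytidylyl transferase of the choline branch (chr3:196214222-196287957, minus strand, ENSG00000161217), was at 147, 112 and 137 CPM in sgControl and at 131, 122 and 126 CPM in sgRFX6. The groups overlapped, and the fold change was -0.07 (SE 0.16, adjusted p = 0.917 by edgeR). PCYT1A stood far above PCYT1B in every library. Per kilobase of transcript, PCYT1B made up 1.66, 2.08 and 1.68% of the reads of both genes in sgControl, and 0, 0.0905 and 0.0316% in sgRFX6. The summed level of both cytidylyl transferase RNAs therefore followed PCYT1A in both groups. SLC51A overlaps PCYT1A on the opposite strand and had at most 18 counts in a library.

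PCYT2, the cytidylyl transferase of the ethanolamine branch (chr17:81900965-81911464, minus strand, ENSG00000185813), was at 246, 254 and 258 CPM in sgControl and at 375, 442 and 244 CPM in sgRFX6. The sgRFX6 libraries 1 and 2 lay above all sgControl libraries, and library 3 lay below them. The fold change of 0.48 (SE 0.22, adjusted p = 0.352 by edgeR) did not pass the test. Without sgRFX6 library 3 it was 0.70 and passed (adjusted p = 0.0314), in a fit that called 718 of 13018 genes. The transcript of PCYT2 had the highest GC content of the 10 genes, 64.6%. After a correction of each library for GC content the fold change was 0.49 (adjusted p = 0.0391), in a fit that called 1409 of 12206 genes. NPB overlaps 1941 bases of PCYT2 on the opposite strand and had a fold change of -0.59 that was not called.

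**Figure D1:**
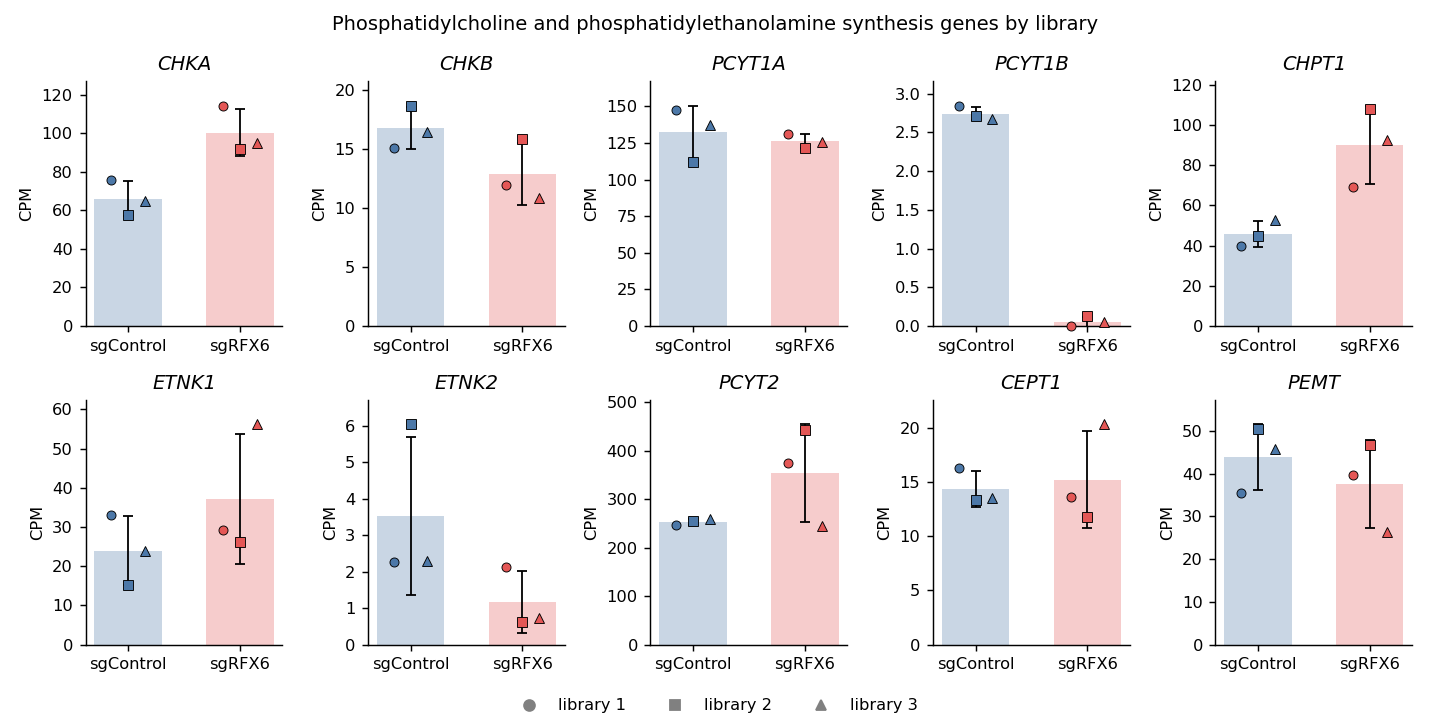
Level of each of the 10 genes in CPM (counts per 1000000, linear axes from 0, a separate scale per gene) in the sgControl and sgRFX6 libraries. Bars show means, error bars the SD over 3 libraries, and symbols the libraries. PCYT1B lies between 2.68 and 2.84 CPM in sgControl and at 0.13 CPM or less in sgRFX6, and the lowest sgRFX6 library of CHPT1 (69.4 CPM) lies above the highest sgControl library (52.8 CPM).

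CHPT1, the cholinephosphotransferase of the Golgi (chr12:101696947-101744140, plus strand, ENSG00000111666), was at 39.9, 45.0 and 52.8 CPM in sgControl and at 69.4, 108 and 92.8 CPM in sgRFX6. All sgRFX6 libraries lay above all sgControl libraries. The fold change was 0.97 (SE 0.21, adjusted p = 0.0419 by edgeR's quasi-likelihood test), close to the threshold of 0.05. The call was lost when any 1 of the 6 libraries was left out (adjusted p from 0.0505 to 0.158, fold change from 0.81 to 1.13). It was also lost after the GC correction (0.94, adjusted p = 0.170), where the SE was 0.39 against 0.21 in the main test. The regional correction, a refit with the median fold change of the 50 nearest tested genes (0.27) as an offset, lost it too (0.75, adjusted p = 0.141). The weighted limma-voom fit, which called 3998 of 12839 genes, called CHPT1 at 0.65 (adjusted p = 0.0105). The difference kept its direction in all 16 alternatives.

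The 3 nearest tested genes on each side of CHPT1 had fold changes of either sign. GAS2L3, UTP20 and ARL1 on one side were at 0.25, 0.50 and 0.31, and CCDC53 on the other was at 0.48, and none of these 4 was called. GNPTAB, which starts the tag that sends enzymes to lysosomes and ends 1.36 kb from CHPT1, had a fold change of 0.02. DRAM1, an autophagy gene 133 kb away, had one of -1.69 and was called lower (adjusted p = 0.0120 by edgeR). SYCP3, a meiosis gene that overlaps CHPT1 on the opposite strand, had from 0 to 10 counts, against 827 to 2042 for CHPT1. All of these genes were chosen for their position.

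CEPT1, the choline and ethanolamine phosphotransferase of the endoplasmic reticulum (chr1:111139627-111185102, plus strand, ENSG00000134255), was at 16.3, 13.3 and 13.5 CPM in sgControl and at 13.7, 11.8 and 20.4 CPM in sgRFX6. The groups overlapped, and the fold change of 0.09 (SE 0.26) changed sign in 4 of 16 alternatives. Without sgRFX6 library 3 it was -0.17. Per kilobase, CHPT1 made up 75, 80.5 and 82.7% of the reads of CHPT1 and CEPT1 in sgControl, and 86.2, 91.9 and 84.8% in sgRFX6. The groups did not overlap, and the means differed by 8.20 percentage points. SELENOI, the other ethanolamine phosphotransferase, listed under its older symbol EPT1, had a fold change of -0.10 with overlapping groups.

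CHKA, the choline kinase often raised in tumours (chr11:68052859-68121444, minus strand, ENSG00000110721), was at 75.7, 57.8 and 64.7 CPM in sgControl and at 114, 91.7 and 94.8 CPM in sgRFX6. All sgRFX6 libraries lay above all sgControl libraries. The fold change of 0.60 (SE 0.18, adjusted p = 0.123 by edgeR) did not pass the test, though it passed with limma-voom (adjusted p = 0.00100) and after the GC correction (adjusted p = 0.0434). Those fits called 3998 of 12839 and 1409 of 12206 genes, against 480 of 12839 in the main test. The 50 tested genes nearest to CHKA had a median of 0.29, and the fold change in the regional correction was 0.34 (adjusted p = 0.474). TCIRG1, 1.96 kb away, and NDUFS8, 16.2 kb away, had fold changes of 0.45 and 0.37. The other 4 of the 3 nearest tested genes on each side, ALDH3B1, KMT5B, C11orf24 and LRP5, were at 0.14, 0.36, 0.41 and 0.05. All 6 were positive and none was called, and whether they share a source with CHKA was not tested.

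CHKB, the second choline kinase gene (chr22:50578949-50601455, minus strand, ENSG00000100288), was at 15.1, 18.7 and 16.5 CPM in sgControl and at 11.9, 15.9 and 10.9 CPM in sgRFX6. The groups overlapped, and the fold change was -0.38 (SE 0.24, adjusted p = 0.516 by edgeR). The readthrough row CHKB-CPT1B, which shares its exons on the same strand, had a fold change of -0.14, and how reads were divided between the rows is not given. MAPK8IP2, a scaffold protein gene that overlaps 771 bases of CHKB on the opposite strand, was at 12.0 to 21.4 CPM in sgControl and 20.3 to 44.1 CPM in sgRFX6, with a fold change of 1.0 that was not called. Per kilobase, CHKB made up 20.7, 29.7 and 25% of the reads of both kinases in sgControl and 12.0, 18.5 and 13.0% in sgRFX6. The shares did not overlap, and their means differed by -10.6 percentage points (sgRFX6 minus sgControl).

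**Figure D2:**
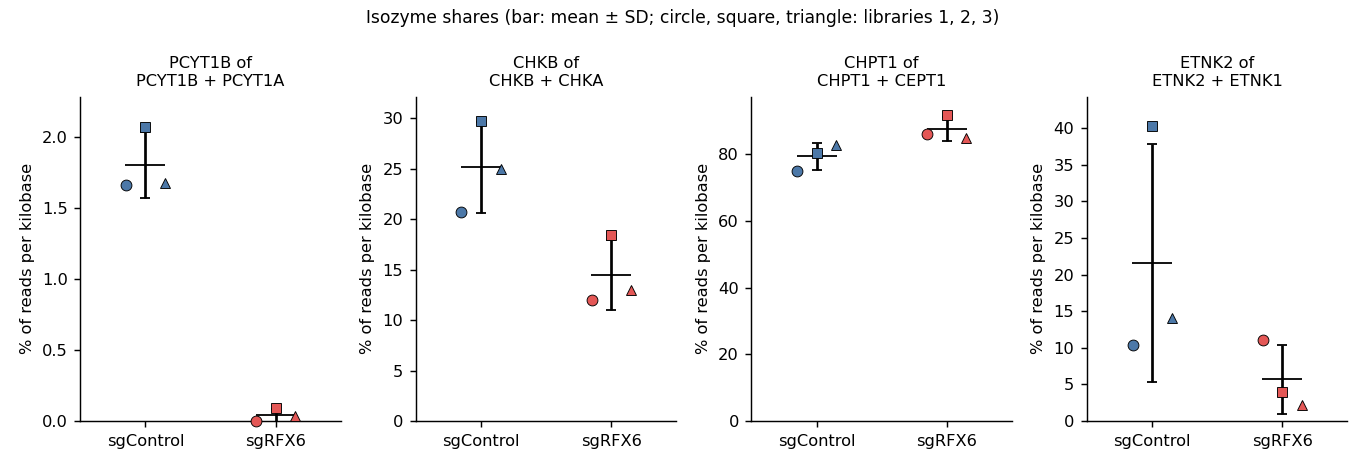
Share of an isozyme in the summed reads per kilobase of the enzymes of its step, in percent, in each sgControl and sgRFX6 library (linear axes from 0, a separate scale per panel). The mean share of PCYT1B is 1.81% in sgControl and 0.0407% in sgRFX6, the shares of CHKB and CHPT1 do not overlap between groups, and those of ETNK2 do.

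ETNK1, the broadly expressed ethanolamine kinase (chr12:22625075-22690665, plus strand, ENSG00000139163), was at 33.0, 15.2 and 23.8 CPM in sgControl and at 29.1, 26.1 and 56.2 CPM in sgRFX6. The groups overlapped, and the fold change was 0.63 (SE 0.37, adjusted p = 0.480 by edgeR). It went from 0.21 to 0.93 when 1 library was left out. The highest value came from sgRFX6 library 3, and the GC content of the transcript, 34.6%, was among the lowest of the 10.

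ETNK2, an ethanolamine kinase found mainly in liver and reproductive tissue (chr1:204131062-204152003, minus strand, ENSG00000143845), was represented by 47, 149 and 53 counts in sgControl and by 43, 10 and 16 counts in sgRFX6. The levels were 2.26, 6.03 and 2.29 CPM in sgControl and 2.14, 0.63 and 0.73 CPM in sgRFX6. The groups only just failed to overlap, since the highest sgRFX6 library lay at 2.14 CPM and the lowest sgControl library at 2.26 CPM. The fold change of -1.59 (SE 0.58, adjusted p = 0.216 by edgeR) did not pass the test and went from -2.37 to -0.96 when 1 library was left out. Per kilobase, ETNK2 made up 10.4, 40.3 and 14.0% of the reads of both ethanolamine kinases in sgControl and 11.1, 3.92 and 2.15% in sgRFX6, and these shares overlapped.

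PEMT, which forms phosphatidylcholine by methylation (chr17:17505563-17591708, minus strand, ENSG00000133027), was at 35.5, 50.3 and 45.9 CPM in sgControl and at 39.8, 46.7 and 26.3 CPM in sgRFX6. The groups overlapped, and the fold change was -0.22 (SE 0.25, adjusted p = 0.772 by edgeR). The 50 nearest tested genes had a median of -0.20, close to that value.

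**Figure D3:**
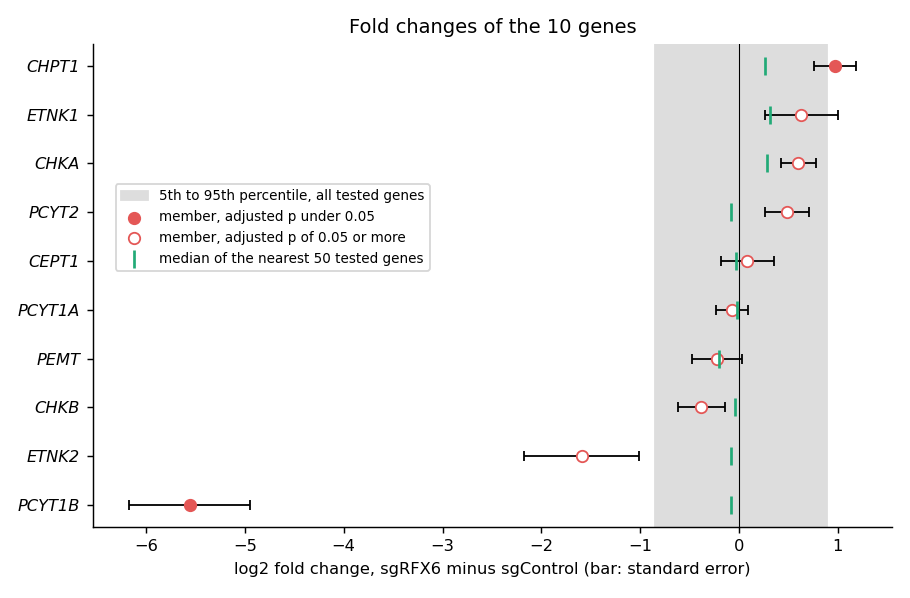
Fold change of each of the 10 genes (log2, sgRFX6 minus sgControl, horizontal axis), with its standard error as a bar, sorted by value. Filled circles mark CHPT1 (0.97) and PCYT1B (-5.56), the 2 genes with an adjusted p under 0.05, green ticks the median of the 50 nearest tested genes, and the grey band the middle 90% of all genes tested, from -0.85 to 0.89.

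Within sgRFX6, the difference between library 3 and the other libraries followed the GC content of the transcript for most of the 10 genes. On the scale of log2(CPM + 0.1), library 3 stood above the mean of libraries 1 and 2 by 1.03 for ETNK1 and 0.68 for CEPT1, both under 35% GC. It stood at -0.74 for PCYT2, -0.71 for PEMT, -0.63 for ETNK2 and -0.34 for CHKB, all with at least 59.6% GC. For ETNK2 this came from a high library 1 (2.14 CPM), since library 3 (0.73 CPM) lay above library 2 (0.63 CPM). CHPT1 was the exception at the low end, with a GC content of 34.4% and a difference of 0.10. PCYT1A, PCYT1B and CHKA, between 46.9 and 51.5% GC, lay within 0.11 of 0. PCYT1B was below the limit of 3 counts in every sgRFX6 library, so its value rests on the added 0.1 and cannot show a trend. The part of these library differences in the fold changes of single genes was not tested beyond the GC correction. After it CHPT1 (0.94, SE 0.39) was no longer called, and PCYT2 and CHKA were.

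**Figure D4:**
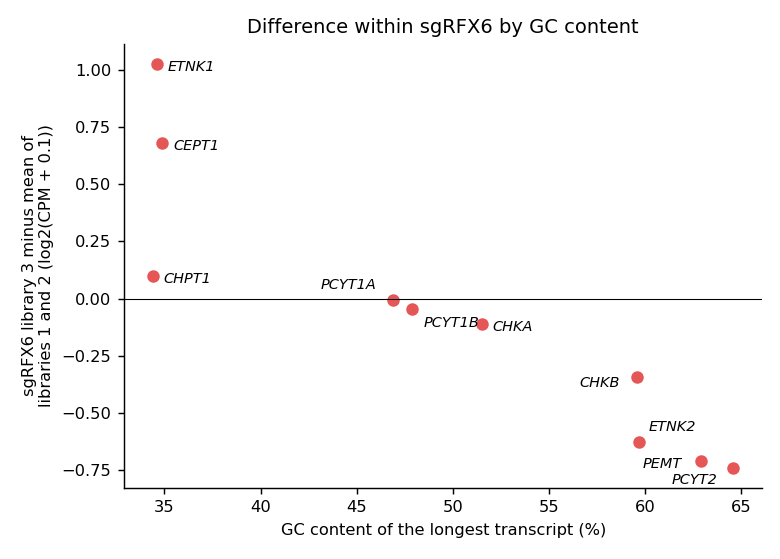
Difference of sgRFX6 library 3 from the mean of sgRFX6 libraries 1 and 2 on the scale of log2(CPM + 0.1), against the GC content of the longest transcript in percent, with 1 point for each of the 10 genes. The values run from 1.03 for ETNK1 at 34.6% GC to -0.74 for PCYT2 at 64.6% GC, and CHPT1 lies near 0 at 34.4% GC. PCYT1B was below the limit of 3 counts in every sgRFX6 library.

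The levels of the 10 genes were ordered per kilobase of the median coding transcript. In sgControl the order of CPM per kilobase was PCYT2 (140 ± 3.45, SD, n = 3), PCYT1A (89.2 ± 12.2), PEMT (43.5 ± 7.58), CHKA (30.8 ± 4.20), CHPT1 (25.6 ± 3.62), CHKB (10.2 ± 1.09), CEPT1 (6.54 ± 0.755), ETNK1 (5.82 ± 2.16), PCYT1B (1.62 ± 0.0516) and ETNK2 (1.45 ± 0.893). PEMT and CHKA, CHKA and CHPT1, CEPT1 and ETNK1, and PCYT1B and ETNK2 overlapped and did not differ beyond their spread. The cytidylyl transferases PCYT2 and PCYT1A thus led the list, and PCYT1B and ETNK2 closed it.

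In sgRFX6 the order began with PCYT2 (195 ± 55.6), PCYT1A (85.2 ± 3.30), CHPT1 (50.2 ± 10.9), CHKA (46.8 ± 5.68) and PEMT (37.3 ± 10.3), of which CHPT1, CHKA and PEMT overlapped with their neighbours. It ended with ETNK1 (9.01 ± 4.02), CHKB (7.87 ± 1.62), CEPT1 (6.94 ± 2.05), ETNK2 (0.479 ± 0.347) and PCYT1B (0.0337 ± 0.0376), and ETNK1, CHKB and CEPT1 overlapped with their neighbours. CHPT1 stood at place 5 in sgControl and at place 3 in sgRFX6, and PEMT at places 3 and 5. The place of PCYT1A depends on the length used. With the merged length of all exons (5960 bases against 1482) it stood at place 4 in sgControl and 5 in sgRFX6.

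The genes that supply and use these lipids were examined in 11 further lists written from general knowledge of the pathway. Of 76 genes, 75 had a row and 67 were tested, of which 0 were called higher and 2 lower by edgeR's quasi-likelihood test, against 3.74% of all genes. An unadjusted p under 0.05 was reached by 11 of the 67, and by 2000 of all 12839 genes tested (15.6%). Their median fold change was -0.06, against 0.02 over all genes tested. Both genes called, BHMT2 and DMGDH, stood in the list of choline oxidation and betaine use. DMGDH acts in that route, downstream of betaine, whereas BHMT2 is a relative of the betaine enzyme BHMT that does not use betaine itself.

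BHMT2, which methylates homocysteine with S-methylmethionine, was at 32.2, 35.4 and 30.5 CPM in sgControl and at 17.1, 14.8 and 14.7 CPM in sgRFX6 (fold change -1.07, SE 0.20, adjusted p = 0.0209 by edgeR). DMGDH, the dimethylglycine dehydrogenase of mitochondria, was at 3.95, 4.74 and 3.02 CPM in sgControl and at 1.54, 1.38 and 1.36 CPM in sgRFX6 (fold change -1.45, SE 0.31, adjusted p = 0.0398 by edgeR). In both genes all sgRFX6 libraries lay below all sgControl libraries. BHMT2 lies within the span of DMGDH on chromosome 5, on the opposite strand, and reads of the pair may be shared. When 1 library was left out, BHMT2 was called in 1 of 6 fits and DMGDH in 0 of 6, with adjusted p from 0.0216 to 0.0985 and from 0.0634 to 0.141. Their fold changes in these fits ran from -1.15 to -1.01 and from -1.58 to -1.28. Of the other 3 tested genes of the list, SARDH, the next enzyme after DMGDH, had a fold change of -2.44 that did not pass the test (adjusted p = 0.169), CHDH one of -0.23 and ALDH7A1 one of 0.18. SARDH was at 0.77, 4.46 and 0.82 CPM in sgControl and at 0.50, 0.50 and 0.14 CPM in sgRFX6, so that sgControl library 2 alone stood far above the rest.

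The other lists held no called gene. In choline and ethanolamine transport (7 tested, median -0.14), the choline transporters SLC44A1, SLC44A2 and FLVCR1 had fold changes of 0.36, -0.47 and -0.20. In the phosphatidylserine route, which makes phosphatidylethanolamine without the Kennedy pathway, the synthases PTDSS1 and PTDSS2 and the decarboxylase PISD were at -0.06, 0.25 and 0.01. In the supply of S-adenosylmethionine, the methyl donor of PEMT, the synthetase MAT2A and the recycling enzyme AHCY were at 0.03 and 0.00, and MAT1A, the synthetase of adult liver, had from 0 to 3 counts. Genes of phosphatidate and diacylglycerol synthesis (14 tested) had a median of -0.03, those of reacylation (6 tested) 0.03, those of phosphatidylcholine breakdown (12 tested) -0.36, those of sphingomyelin synthesis (3 tested) -0.15, those of transfer and secretion (7 tested) 0.04 and those of ether lipids (6 tested) -0.17. Breakdown was the list with the lowest median after choline oxidation (-1.07), with 9 negative and 3 positive values.

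**Figure D5:**
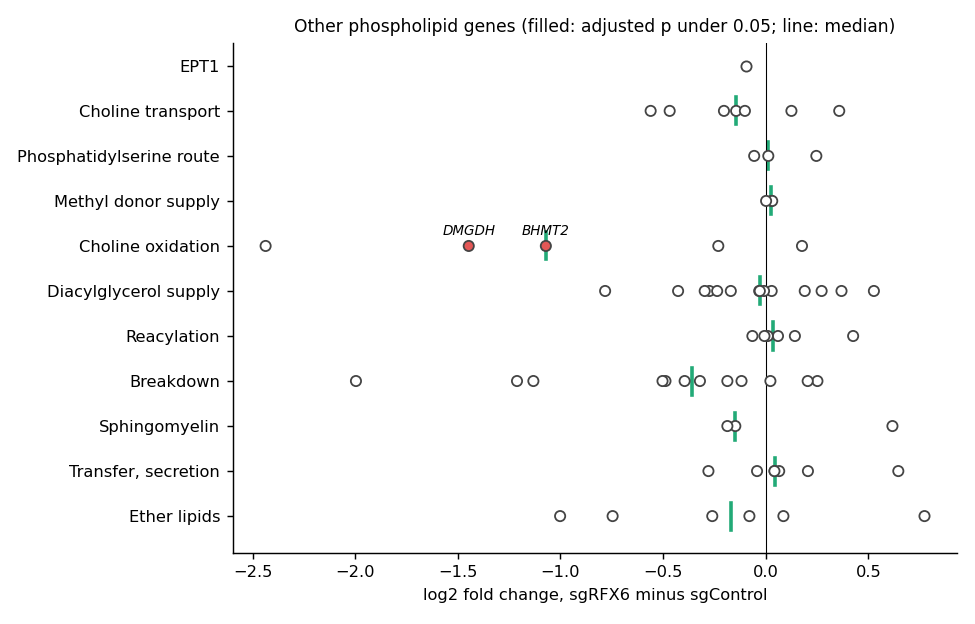
Fold changes (log2, sgRFX6 minus sgControl, horizontal axis) of the tested genes of the 11 other phospholipid lists, 1 circle per gene and 1 row per list, with the list's median as a green line. Filled circles mark the 2 genes with an adjusted p under 0.05, BHMT2 (-1.07) and DMGDH (-1.45), both of choline oxidation.

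The labelled cell type was checked against its markers. All 14 hepatocyte markers were tested, but their levels were uneven. The liver transcription factor gene HNF4A was at 109 to 161 CPM over the 6 libraries, the albumin gene ALB at 12.9 to 32.1, the apolipoprotein gene APOA1 at 0.69 to 2.45 and the transthyretin gene TTR at 0.26 to 0.88. The bile duct marker KRT19, a keratin gene, was at 407 to 956 CPM. The alpha-fetoprotein gene AFP, at 1.58 to 2.31 CPM in sgControl, and AHSG were called higher, and the fibrinogen genes FGA and FGB lower (fold changes 2.82, 1.68, -1.74 and -2.45). The summed level of the list was 350 to 429 CPM in sgControl and 280 to 299 CPM in sgRFX6. Of 6 fibroblast markers, COL1A1, COL1A2 and COL3A1 were called lower. The summed level was 51.0 to 60.6 CPM in sgControl and 21.4 to 56.2 CPM in sgRFX6. LUM was at 19.7, 24.9 and 16.8 CPM in sgControl and at 19.5, 20.6 and 54.7 CPM in sgRFX6. It made up most of the highest sgRFX6 sum, in library 3. Its fold change of 0.63 was positive and not called, DCN at -0.44 was not called, and PDGFRB was not tested. COL3A1 itself went from at least 23.0 CPM in sgControl to at most 0.10 CPM in sgRFX6. No bile duct, endothelial or leukocyte marker was called. In sgControl their summed levels were 719 to 1099, 11.8 to 13.6 and 74.0 to 160 CPM, and in sgRFX6 they were 538 to 840, 13.4 to 19.7 and 65.1 to 103 CPM. Most of the endothelial sum was PECAM1, at 11.4 to 13.0 CPM in sgControl and 13.2 to 19.3 CPM in sgRFX6. Most of the leukocyte sum was CD68, at 72.1 to 157 CPM in sgControl and 61.0 to 99.1 CPM in sgRFX6. These sums thus follow single genes and do not measure a cell type. The leukocyte marker PTPRC had from 4 to 22 counts in a library. The endothelial receptor gene KDR and the T cell gene CD3E were at no more than 1 count in a library. The part of the marker differences in the results above was not tested.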

How the data were processed

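RNA was measured in 3 sgControl and 3 sgRFX6 libraries of Hep3B cells, grouped by their titles. Total RNA was extracted with Trizol and sequenced on an Illumina HiSeq machine. The authors deposited raw counts per gene without normalisation, in a table whose columns were matched to samples by name (0 columns were not used). The aligner, counter, annotation and strand setting are not given in the sources used here. The submitters' processing notes name GRCh38 (hg38). ChIP-seq and metabolome data were not analysed here.

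The row without a gene name (at most 9.17e-05% of counts) was left out. Genes were kept by edgeR 4.0.16 filterByExpr (minimum count 10, minimum total 15), scaled by TMM and compared with the quasi-likelihood test in R 4.3.3, without covariates, with Benjamini-Hochberg adjustment over all 12839 genes and a threshold of 0.05. Standard errors came from the fold change and the F statistic. The common biological coefficient of variation was 0.269. The fit was tested on simulated counts whose noise was set by a fixed formula and not estimated from these libraries. The calls above do not rest on that test.

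The genes and lists were chosen with earlier results of these data known. Named genes are the 10 genes, RFX6, 10 genes of related steps (among them SELENOI, PTDSS1, MAT2A and SLC44A1), every called gene of the other lists, and the 3 genes whose centred log2 CPM over 6 libraries lay closest to the gene with the largest fold change among those averaging 1 or more in log2 CPM. Other genes were named for their position, as list or marker members, or after their values were seen (SARDH, CHDH and ALDH7A1).

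GENCODE 29 on GRCh38 gave the position, length and GC content of genes. It matched 15422 rows by name and 257 by another symbol and left 1042 unmatched. Promoters came from RefSeq. Alternatives were RLE factors, library size only, 2 other filters, DESeq2 1.42.0, limma-voom 3.58.1 with sample quality weights, a replicate block, a GC correction (loess span 0.3), both together, subtraction of the median of the nearest 50 genes, and each library left out. Shares with merged exon lengths were added after the data were seen.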

Additional observations from a re-analysis of the deposited data

How the results depend on the processing

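PCYT1B was called lower in all 16 alternatives. CHPT1 was called higher in 7 of the 16 and stayed positive in the other 9. The 10 genes held 2 called genes, but 4 with limma-voom (PCYT1B, CHPT1, PCYT2 and CHKA), 1 with the replicate block and GC correction together, 1 with the regional correction and 1 to 2 with 1 library left out (CHPT1 lost each time, PCYT2 gained without sgRFX6 library 3). Over all genes, 480 calls became 895 with DESeq2 (491 higher, 404 lower), 3998 with limma-voom (2329 and 1669) and 1409 with the GC correction (840 and 569), 383 were higher with block and GC correction, and leaving out 1 library gave 212 to 718 calls (85 to 432 higher, 110 to 286 lower). The share of calls that were higher, 51.5%, was 38.2% without sgControl library 1 and 40.1% without sgControl library 3. The other phospholipid lists held 4 calls with DESeq2, 20 with limma-voom, 9 with the GC correction, 4 with block and GC correction, 1 with the regional correction and 0 to 2 with 1 library left out, against 2.

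Replicate numbers did not pair the libraries, since deviations of libraries with the same number correlated at -0.41, 0.17 and -0.09. Some pairs of unlike number correlated more. The values were 0.57 for sgControl 1 with sgRFX6 3, 0.44 for sgControl 2 with sgRFX6 1 and 0.28 for sgControl 3 with sgRFX6 2. The other pairs of unlike number were negative. No fit used these pairs. With the replicate block, which rests on the replicate numbers, there were 648 calls, 2 of them among the 10 genes and 4 in the other lists. PCYT1B (-5.57) and CHPT1 (0.96) kept their calls.

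None of the 4 called genes (PCYT1B, CHPT1, BHMT2 and DMGDH) changed sign. Of the others, CEPT1 was at -0.071 with limma-voom, -0.041 with the GC correction and -0.043 with block and GC correction. Under the regional correction EPT1 was at 0.17, PTDSS1 at 0.035, PTDSS2 at -0.13 and AHCY at -0.056. PISD was at -0.0095 with library size only and at -0.016 with the block. With limma-voom MAT2A was at -0.044 and SLC44A2 at 0.11. AHCY was also at -0.0033 with RLE factors, -0.020 with library size only, -0.0021 without the filter, -0.0033 with DESeq2 and -0.025 with the block. With 1 library left out, PCYT1A ran from -0.17 to 0.017, CEPT1 from -0.17 to 0.23, EPT1 from -0.45 to 0.24, PTDSS1 from -0.18 to 0.067, PISD from -0.21 to 0.21, MAT2A from -0.080 to 0.10 and AHCY from -0.13 to 0.19. The difference in the PCYT1B share, -1.77 percentage points, was -2.01 without length scaling and -2.15 with merged exon length. The cause of these changes was not tested. At this depth PCYT1B in sgRFX6 lies below the limit of 3 counts in every library, so the size of its difference is poorly known. Its interval pools the counts of each group and covers counting error only, not the spread between libraries, cultures or clones.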

Other observations

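Of those of the 10 genes that averaged 1 or more in log2 CPM, ETNK2 had the largest fold change. The 3 tested genes whose level varied most like that of ETNK2 over the 6 libraries, by root mean square distance of centred log2 CPM, were C3orf18 (0.126), ALPK3 (0.219) and SRRM4 (0.256). C3orf18 was at 1.01, 2.39 and 0.86 CPM in sgControl and at 0.75, 0.25 and 0.27 CPM in sgRFX6. ALPK3, a kinase gene of muscle, was at 37.8, 88.1 and 34.5 CPM in sgControl and at 26.6, 14.0 and 10.9 CPM in sgRFX6. SRRM4, a splicing regulator of neurons, was at 1.88, 4.74 and 1.55 CPM in sgControl and at 1.04, 0.50 and 0.59 CPM in sgRFX6. None of the 3 was called (adjusted p = 0.176, 0.0922 and 0.0964 by edgeR's quasi-likelihood test, fold changes -1.73, -1.64 and -1.92), and their likeness to ETNK2 in these libraries was fixed by the choice.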
